A study of Mus musculus with 8 samples.

Results

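The response to cigarette smoke (CS) shared by both α7 genotypes was described by setting the 4 CS libraries against the 4 control libraries of the series, 8 of 8 libraries in all, with genotype as a block and with every gene of the count files as a candidate. The groups were α7G controls, α7G CS, α7E260A:G controls and α7E260A:G CS, with 1 male and 1 female library in each. All mice were adult, were more than 90% C57BL/6 by the labels, and carried the IRES-tauGFP reporter behind Chrna7, the gene of the nicotinic receptor α7. The α7E260A:G line also carried the point mutation that limits calcium coupling of the receptor, so the controls of neither line are wild type. CS mice breathed side-stream smoke on 5 days per week for 4 months in a Teague chamber and controls breathed room air. Distal lung was lavaged and depleted of CD45-bearing cells before poly-adenylated RNA was sequenced. Per the labels, over 95% of the sequenced cells carried EpCAM and under 1% the endothelial marker CD31, with no value for each library. How many mice went into each library is not given in the sources used here, so p-values measure the spread between these libraries, which may be technical. By the study's methods smoke sessions began in the morning and CS mice were taken a day after the last one, while the hour for the controls is not given. Each CS library was matched to the control library of the same genotype and sex, which gave 4 pairs.

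Tobacco smoke brings aldehydes, quinones and polycyclic hydrocarbons to the cells lining the airways and alveoli. Many of these compounds are cleared by enzymes whose genes are switched on by NRF2, a sensor of oxidants and electrophiles, and by the aryl hydrocarbon receptor (AhR), a sensor of aromatic compounds. Macrophages of the airspaces take up smoke particles and break them down in lysosomes. Fibroblasts beneath the epithelium lay down the collagens and proteoglycans that hold the alveolar wall open.

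Total counts were 8020726 to 10944100 per library, and 3 counts correspond to 0.274 to 0.374 reads per 1000000 counted (RPM). Of 22756 genes, 7196 with a mean of at least 200 counts and not removed by name were tested. Chrna7 had 0 counts in 7 libraries and 4 in the male α7E260A:G control, so the reads do not check the genotype, whereas Y-linked Ddx3y was counted 520 to 882 times per male library and 0 times in female ones. Epithelial transcripts were abundant, with the surfactant gene Sftpc between 2323 and 20144 RPM and the club cell gene Scgb1a1 between 10452 and 58080 RPM. The mRNA of CD45 itself, Ptprc, was nevertheless present at 771 to 1935 RPM. Its mean level per kilobase of coding sequence was 309 RPM, against 138 RPM per kilobase for the epithelial adhesion gene Epcam. One library stood apart in red cell genes. The summed level of the 5 tested was 9374 RPM in the male α7E260A:G CS library and 198 to 2175 RPM in the others. In such bulk samples, fewer cells of a type and less RNA per cell cannot be told apart.

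In RPM, 943 of 7196 genes (13.1%) were higher after CS in 4 of 4 pairs and 874 (12.1%) were lower in 4 of 4. Scaled by TMM, which centres the bulk of genes in each library, the same counts were 856 and 1215, so the balance of directions moved with the scaling. At least a 1.5-fold difference, taken from the mean of the 4 log2 pair ratios, was met by 115 of the genes higher in every pair. It was met by 305 of those lower in every pair. The libraries of the groups separated completely for fewer genes, with all CS above all control values for 119 genes (1.65%) and all CS below for 30 (0.417%).

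The genes of one direction differed sharply in the length of their coding sequence (CDS). Their median CDS was 915 bases where CS was higher and 2939 bases where CS was lower, against 1548 bases over all tested genes. Among the genes with the shortest CDS, 1 of 5 equal groups, 111 to 855 bases, 28.5% were higher in RPM in 4 of 4 pairs and 1.46% were lower. Among the group with the longest CDS, 2859 to 28694 bases, 0.556% were higher and 31.3% were lower.

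The length trend was a property of single libraries and not of every CS library. Relative to the mean library, log2 level changed per doubling of CDS length by 0.23, 0.057, 0.41 and -0.24 in the male α7G, female α7G, male α7E260A:G and female α7E260A:G controls. In the CS libraries, in the same order, the slopes were -0.24, -0.20, 0.19 and -0.20. The mean slope was 0.113 ± 0.274 (SD, n = 4) in controls and -0.113 ± 0.201 (SD, n = 4) after CS, a difference of -0.227 with a two-sided exact permutation p of 0.257 over 70 arrangements. The female α7E260A:G control thus sloped like the CS libraries and the male α7E260A:G CS library like the controls, and the groups overlapped.

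Within the pairs, the log2 ratio of CS to control fell off with length in 3 of 4. Its slope per doubling of CDS length was -0.47 in the α7G males, -0.26 in the α7G females, -0.22 in the α7E260A:G males and 0.041 in the α7E260A:G females. The correlation of ratio and log2 length across genes, which share their libraries and are not replicates, was -0.74, -0.63, -0.56 and 0.12 in that order. In the α7G males the median log2 ratio went from 0.56 in the group of shortest genes to -0.86 in the longest.

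**Figure D1:**
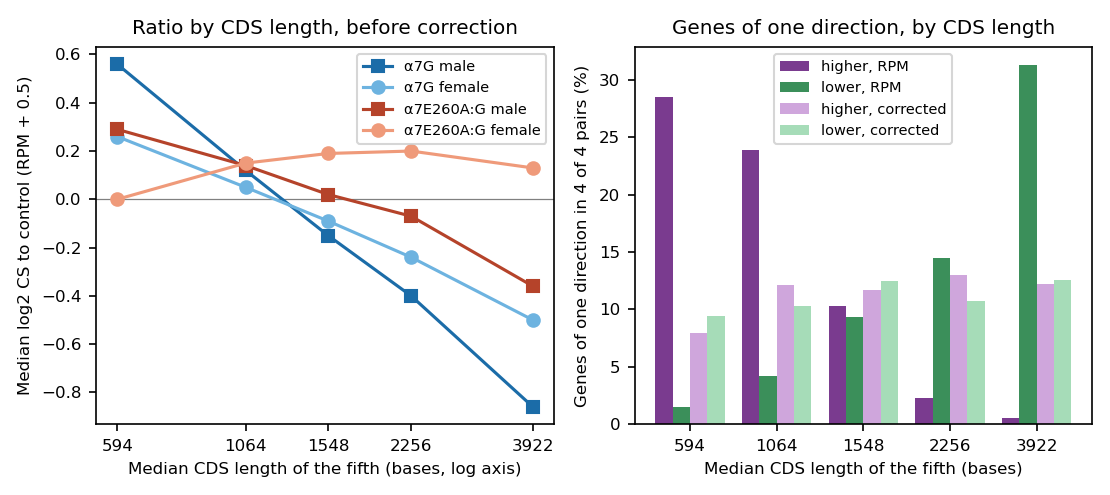
Left, median log2 ratio of CS to control in RPM with 0.5 added, for 5 equal groups of genes ordered by CDS length (log axis), 1 line per matched pair. Right, percentage of genes of each group that were higher or lower in 4 of 4 pairs, in RPM and after correction for CDS length. The lines of 3 pairs descend and that of the α7E260A:G females does not, and the corrected bars lie between 7.92% and 13.0% in every group.

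Each library was therefore also corrected by its own smooth curve on log2 CDS length, entered as an offset in the count model. After the correction, 819 genes (11.4%) were higher and 800 (11.1%) lower in 4 of 4 pairs, with median CDS lengths of 1644 and 1677 bases. Of the genes of one direction in RPM, 405 were higher and 421 were lower in every pair on both scales. The 1.5-fold counts became 85 and 86. The fit removes the smooth trend with length whatever its source, and whether smoke itself acted on long transcripts cannot be told apart here from a difference between the preparations.

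The length trend was plain in the list of giant coding sequences, such as those of dyneins and spectrins. Of its 23 tested members, 14 were lower in RPM in 4 of 4 pairs, and the median log2 difference between groups was -0.95. After correction 3 were lower and 2 higher in every pair and the median was 0.01. The nuclear genes of respiratory complex I, which encode short subunits, went the other way, with a median log2 difference of 0.40 for 33 members before correction and 0.17 after it. In RPM 5 of the 33 were higher and 0 lower in 4 of 4 pairs, and after correction 10 were higher and 0 lower, against 11.4% and 11.1% of all tested genes.

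Tested by edgeR without length correction, 0 of 7196 genes (0%) passed an adjusted p of 0.05, while 637 had an unadjusted p under 0.05. With the length offset the count was again 0 (0%), with 325 higher (4.52%) and 342 lower (4.75%) at an unadjusted p under 0.05. DESeq2 called 53 genes without the offset and 102 with it. With the 4 pairs as a block beside the offset, edgeR called 35 genes, of which 24 (0.334%) rose and 11 (0.153%) fell. Every one of the 35 had 1 direction in 4 of 4 corrected pairs, and 32 also had it in RPM. The paired test favours genes whose pairs agree, so this agreement is no separate support. The same model called 0 genes without the α7E260A:G female pair and 2 without the α7G male pair, and 64 and 47 without the α7E260A:G male or the α7G female pair. Of the 35 genes, 7 were also called with a GC term beside the length offset and 4 in the wider gene set of filterByExpr, settings under which all 35 kept their direction and their log2 differences moved by at most 0.11 and 0.09. The 35 genes are therefore given below with the value in every library, and "rose" and "fell" refer to this paired test alone.

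**Figure D2:**
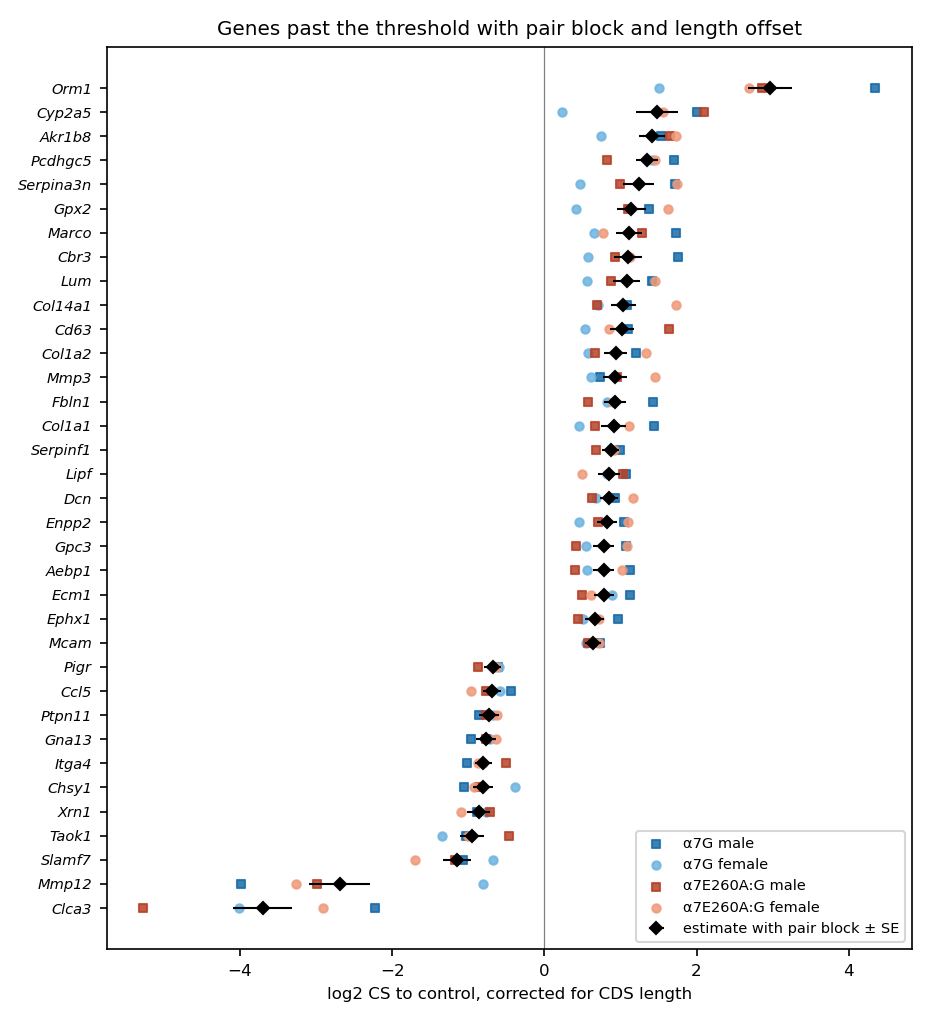
The 35 genes past an adjusted p of 0.05 in edgeR with pair block and CDS length offset, with the estimated log2 ratio of CS to control and its SE (black) and the corrected log2 ratio of each of the 4 matched pairs (coloured). All 4 pairs lie on one side of 0 for every gene, which the selection by a paired test favours. The α7G female pair holds the smallest of the 4 ratios for 14 of the 24 genes that rose.

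Enzymes that clear reactive aldehydes, quinones and epoxides formed the first group of genes that rose. Below, the 4 values of a group are given in the order male α7G, female α7G, male α7E260A:G, female α7E260A:G. Akr1b8, an aldo-keto reductase of reactive aldehydes (chromosome 6, 34304119 to 34318463, NCBIM37), measured 25.9, 31.8, 21.4 and 23.2 RPM in controls and 86.0, 56.3, 76.2 and 83.9 RPM after CS. All CS libraries lay above all controls, by 2.95-fold in the means. Its log2 difference was 1.42 ± 0.17 (SE), with an adjusted p of 0.0170 by edgeR with pair block and 0.0548 without it. Reads shared with close relatives of the same family, such as Akr1b7 and Akr1b10, are a limit of this value.

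Cbr3, a carbonyl reductase, measured 24.9, 29.7, 25.5 and 25.1 RPM in controls and 104, 48.4, 56.1 and 58.9 RPM after CS. The control values were nearly level and every CS value was above them. Gpx2, the glutathione peroxidase of epithelia, measured 32.4, 31.5, 18.6 and 27.6 RPM in controls and 124, 50.4, 49.1 and 85.5 RPM after CS, again without overlap. The log2 differences were 1.10 ± 0.18 for Cbr3 and 1.14 ± 0.19 for Gpx2 (SE, adjusted p = 0.0423 and 0.0422 by edgeR with pair block). For both genes the male α7G pair had the highest CS value.

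Ephx1, the microsomal epoxide hydrolase, measured 213, 242, 170 and 153 RPM in controls and 382, 323, 238 and 286 RPM after CS. The male α7E260A:G CS value lay just below the female α7G control, so the groups overlapped although each pair rose. Its log2 difference was 0.66 ± 0.12 (SE, adjusted p = 0.0450 by edgeR with pair block). Cyp2a5, a cytochrome that oxidises nicotine and coumarin, measured 178, 638, 147 and 190 RPM in controls and 641, 697, 649 and 635 RPM after CS. The CS libraries were close to one another, and the female α7G control was already near their level. Its log2 difference was 1.48 ± 0.27 (SE, adjusted p = 0.0486 by edgeR with pair block), and its near-identical neighbour Cyp2a4 may share its reads.

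Of the list of NRF2 targets, 21 of 25 genes were tested, and 12 were higher and 0 lower in 4 of 4 corrected pairs. Counts of this kind are to be read against the 11.4% higher and 11.1% lower of all tested genes. Cbr3 and Gpx2 rose and 0 members fell in the paired test, and the median log2 difference of the list was 0.33 against 0.00 over all tested genes. The 10 others of one direction were Gstm1, Prdx1, Txn1, Taldo1, Pgd, Abcc1, Fth1, Ftl1, Keap1 and Ugdh, of which Abcc1 had a log2 difference of -0.28 when length was not corrected. Gstm1, a glutathione transferase, measured 375, 500, 365 and 512 RPM in controls and 771, 651, 904 and 1007 RPM after CS, without overlap (log2 difference 0.72 ± 0.14 SE, adjusted p = 0.0779 by edgeR with pair block). Ugdh, which makes the sugar donor of glucuronidation, also separated, at 49.1 to 68.3 RPM in controls and 72.2 to 81.4 RPM after CS (log2 difference 0.34 ± 0.12 SE, adjusted p = 0.224 by edgeR with pair block).

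Nqo1, the quinone reductase often used as a readout of NRF2 (chromosome 8, 109912125 to 109927106, NCBIM37), was below the count minimum. It measured 7.10, 8.01, 5.60 and 3.84 RPM in controls and 63.5, 14.1, 36.0 and 32.0 RPM after CS, a 5.93-fold difference of means without overlap. In the wider set of 14140 genes kept by filterByExpr, its log2 difference was 2.29 ± 0.35 (SE, adjusted p = 0.0672 by edgeR with pair block). The female α7G pair again showed the smallest difference.

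Other members of the list did not follow. Hmox1, the haem oxygenase, measured 121, 103, 170 and 169 RPM in controls and 118, 115, 180 and 178 RPM after CS. Gclc, the catalytic subunit of glutathione synthesis, measured 170, 175, 134 and 67.8 RPM in controls and 130, 109, 142 and 104 RPM after CS. Gclm, the modifier subunit of the same enzyme, was higher in 3 of 4 corrected pairs, at 35.8 to 66.1 RPM in controls and 57.5 to 76.4 RPM after CS.

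The antioxidant response element, the DNA motif bound by NRF2, was searched as TGACNNNGC on both strands of RefSeq windows running from 250 bases before to 50 after each gene start (GRCm38.p6, a later build than the one used for the counts). It was found in 9 of 20 NRF2 targets with a window, against 17.4% of 5296 tested genes and 12.4% of all 32851 windows. Of the genes that rose in the paired test, 1 of 17 with a window held it, namely Aebp1, a gene of the extracellular matrix. The stretches of Prdx1, a member that was higher in every corrected pair, of Ugdh, whose CS and control libraries did not overlap, and of Gclm, which was higher in 3 of 4, are shown as examples of where the letters lie. Capitals mark the motif, which reads in reverse complement in Prdx1 and Gclm, and the stretches lie upstream of the gene start on the strand of the gene.
Prdx1 (chr4:116685446-116685494, plus strand): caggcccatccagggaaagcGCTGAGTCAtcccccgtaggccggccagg
Ugdh (chr5:65435946-65435994, minus strand): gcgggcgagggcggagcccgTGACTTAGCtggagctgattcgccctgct
Gclm (chr3:122245403-122245451, plus strand): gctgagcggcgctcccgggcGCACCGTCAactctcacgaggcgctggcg
A match describes the letters of the window and is not a measured binding site.

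The AhR list gave a weaker picture. Of 12 genes 6 were tested, and 3, with Aldh3a1 and Ugt1a6a among them, were higher and 0 lower in 4 of 4 corrected pairs, with 0 calls in the paired test. The summed level of the 6 tested genes, not of the whole list, was 318 to 451 RPM in controls and 460 to 683 RPM after CS, without overlap. Taken singly, 0 of the 6 had all CS values above all controls in RPM. The change in Aldh3a1, given next, enters that sum, so the sum does not describe the list as a set. Aldh3a1, an aldehyde dehydrogenase, measured 111, 93.4, 28.9 and 19.0 RPM in controls and 329, 124, 57.5 and 112 RPM after CS (log2 difference 1.34 ± 0.26 SE, adjusted p = 0.0655 by edgeR with pair block). Each pair was higher, but the genotypes differed so much that the groups overlapped. Cyp1b1, the cytochrome that activates polycyclic hydrocarbons, was low but separated, at 4.09, 4.06, 3.29 and 1.64 RPM in controls and 7.33, 5.19, 6.98 and 4.98 RPM after CS (adjusted p = 0.237 by edgeR with pair block in the wider gene set). Its relative Cyp1a1 measured 14.1, 6.83, 2.44 and 0 RPM in controls and 28.0, 1.58, 10.8 and 4.54 RPM after CS, with no shared direction. The core of the AhR binding motif, GCGTG, is too short to set genes apart, being present on either strand in 57.3% of tested genes with a window.

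Among the 18 tested of 20 genes in the list of xenobiotic cytochromes, oxidases and hydrolases, 7 were higher and 0 lower in 4 of 4 corrected pairs, and Cyp2a5 and Ephx1 rose. Por, which passes electrons to the cytochromes, measured 207 to 362 RPM in controls and 312 to 446 RPM after CS and was higher in each pair (adjusted p = 0.109 by edgeR with pair block). The lung monooxygenase Fmo1 was higher in each pair too, at 30.2 to 69.9 RPM in controls and 50.4 to 130 RPM after CS (adjusted p = 0.118 by edgeR with pair block). Por and Fmo1 were named after their values were seen.

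**Figure D3:**
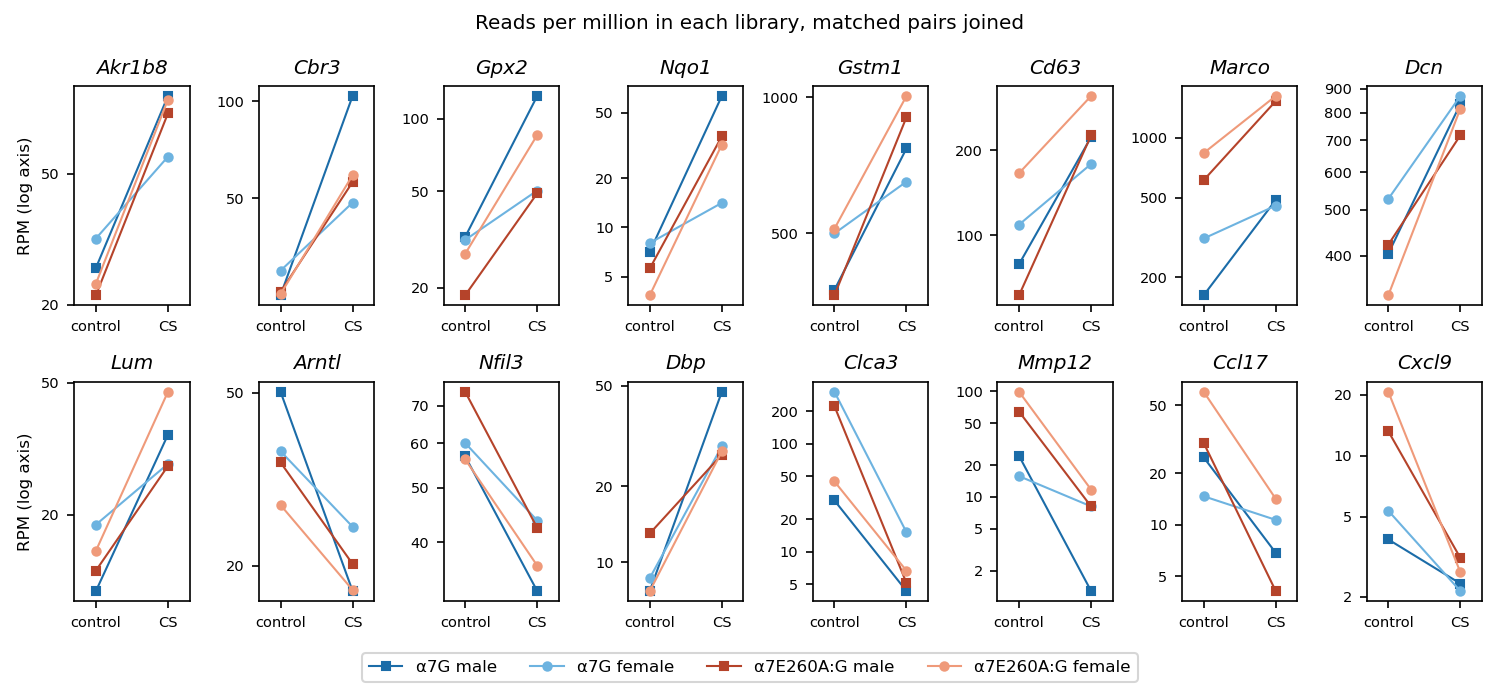
RPM (log axes, a separate scale for each gene) of 16 genes in the 8 libraries, with the control and CS libraries of each matched pair joined. Every line runs upward for Akr1b8, Cbr3, Gpx2, Nqo1, Gstm1, Cd63, Marco, Dcn, Lum and Dbp, and downward for Arntl, Nfil3, Clca3, Mmp12, Ccl17 and Cxcl9.

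Genes of the extracellular matrix and of fibroblasts formed the second and larger group that rose. Of 27 tested genes on the list of fibroblasts and matrix, 11 were higher and 1 lower in 4 of 4 corrected pairs, and 7 rose and 0 fell in the paired test (Dcn, Lum, Fbln1, Mmp3, Col1a1, Col1a2 and Col14a1). The median log2 difference of the list was 0.41. By pair its median was 0.67 in the α7G males, 0.50 in the α7G females, -0.20 in the α7E260A:G males and 0.97 in the α7E260A:G females, so the list as a whole was not higher in every pair.

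Dcn, or decorin, a proteoglycan that coats collagen fibrils (chromosome 10, 96942245 to 96980777, NCBIM37), measured 404, 527, 422 and 330 RPM in controls and 836, 869, 718 and 817 RPM after CS. Every CS value exceeded every control, and the log2 difference was 0.85 ± 0.12 (SE, adjusted p = 0.0384 by edgeR with pair block). Lumican, Lum, of the same family, measured 11.8, 18.7, 13.6 and 15.6 RPM in controls and 34.9, 28.5, 28.1 and 47.0 RPM after CS. It too separated completely, with a log2 difference of 1.08 ± 0.18 (SE, adjusted p = 0.0423 by edgeR with pair block).

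Serpinf1, the secreted factor PEDF made by stromal cells, had nearly level groups. It measured 54.5, 53.5, 55.9 and 41.7 RPM in controls and 109, 96.0, 96.1 and 87.8 RPM after CS, with a log2 difference of 0.87 ± 0.11 (SE, adjusted p = 0.0221 by edgeR with pair block). Fbln1, a fibulin of elastic and basement membrane matrix, measured 55.2, 81.7, 77.7 and 45.1 RPM in controls and 107, 120, 107 and 95.0 RPM after CS. Ecm1, an extracellular matrix glycoprotein, measured 66.0, 53.4, 81.6 and 53.8 RPM in controls and 123, 89.5, 115 and 93.4 RPM after CS. Neither gene overlapped between groups.

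Other secreted or surface proteins of stromal cells separated as well. Mmp3, stromelysin, measured 35.1, 42.2, 21.7 and 16.3 RPM in controls and 54.6, 61.0, 43.6 and 50.3 RPM after CS. Enpp2, autotaxin, which makes lysophosphatidic acid, measured 46.1 to 80.7 RPM in controls and 88.0 to 111 RPM after CS. Gpc3, a glypican, measured 68.7 to 138 RPM in controls and 164 to 182 RPM after CS. Mmp23, below the count minimum and named after its values were seen, measured 7.58 to 14.0 RPM in controls and 20.2 to 44.0 RPM after CS.

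The fibrillar collagens depended more on the length correction. Col1a1 measured 171, 175, 490 and 96.9 RPM in controls and 251, 168, 604 and 225 RPM after CS, so the female α7G pair was slightly lower before correction and higher after it. Its log2 difference was 0.91 ± 0.16 with the correction (SE, adjusted p = 0.0423 by edgeR with pair block). Col1a2, its partner chain, measured 294, 283, 691 and 141 RPM in controls and 379, 301, 859 and 388 RPM after CS, and rose by 0.94 ± 0.15 (SE, adjusted p = 0.0415 by edgeR with pair block). Col14a1, a fibril-associated collagen, and Aebp1, which binds collagen, rose with SEs of 0.17 and 0.14 around log2 differences of 1.04 and 0.78, and both overlapped in RPM. Mcam, an adhesion molecule of vessel walls, rose by 0.64 ± 0.10 (SE, adjusted p = 0.0415 by edgeR with pair block). Col3a1 was higher in 4 of 4 pairs only after correction and in 1 of 4 before, and Eln, the gene of elastin, was lower in each pair at 18.3 to 65.1 RPM in controls and 15.9 to 22.6 RPM after CS (adjusted p = 0.170 by edgeR with pair block).

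The summed level of the 27 tested fibroblast and matrix genes overlapped between groups, at 2112 to 6898 RPM in controls and 3940 to 5635 RPM after CS. None of the members was at 0 in any library. Of 15 tested endothelial genes, 3 were higher and 0 lower in every corrected pair, against 11.4% and 11.1% of all tested genes, with 0 calls. The share of stromal cells in each library is not given, and its part in these differences was not tested.

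The third group was mixed and held a lysosomal gene, a macrophage scavenger receptor, genes of the acute phase and a lipase. Cd63, a tetraspanin of late endosomes and lysosomes, measured 78.9, 109, 61.2 and 166 RPM in controls and 223, 179, 226 and 312 RPM after CS. The CS libraries lay above the controls without overlap, with a log2 difference of 1.02 ± 0.16 (SE, adjusted p = 0.0415 by edgeR with pair block). Marco, a scavenger receptor that binds particles and bacteria, measured 162, 312, 612 and 837 RPM in controls and 487, 456, 1526 and 1618 RPM after CS. Each pair rose, but the α7E260A:G controls were above the α7G CS libraries (log2 difference 1.11 ± 0.17 SE, adjusted p = 0.0415 by edgeR with pair block).

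Orm1, the acute phase α1-acid glycoprotein, had the widest log2 difference among the genes that rose. It measured 0.962, 0.640, 5.97 and 19.6 RPM in controls and 29.4, 2.26, 52.9 and 129 RPM after CS, a log2 difference of 2.96 ± 0.29 (SE, adjusted p = 0.00825 by edgeR with pair block). Both α7E260A:G controls lay above the female α7G CS value, so the groups overlapped, and its relatives Orm2 and Orm3 may share reads. Serpina3n, a protease inhibitor of the acute phase from a cluster of similar genes, measured 29.9, 30.5, 110 and 38.7 RPM in controls and 99.0, 41.5, 234 and 145 RPM after CS (log2 difference 1.24 ± 0.20 SE, adjusted p = 0.0415 by edgeR with pair block). Lipf, a lipase, rose as well, from 15.4, 22.0, 26.3 and 47.0 RPM to 33.4, 39.1, 58.5 and 74.2 RPM. Of 15 tested genes on the list of complement and the acute phase, 3 were higher and 3 lower in 4 of 4 corrected pairs, so that list had no shared direction.

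Lysosomal genes leaned one way, with 14 of 30 tested members higher and 0 lower in 4 of 4 corrected pairs, a median log2 difference of 0.21 and Cd63 as the 1 gene that rose. Those with the highest counts included Ctsd, the aspartic protease cathepsin D, at 3439, 4431, 5117 and 7048 RPM in controls and 4384, 4904, 10128 and 10411 RPM after CS. Named after their values were seen, Cd68, a lysosomal membrane protein of macrophages, measured 485 to 952 RPM in controls and 663 to 1436 RPM after CS, and Gpnmb, a glycoprotein of lipid-laden macrophages, measured 180 to 561 RPM in controls and 271 to 1509 RPM after CS. Both were higher in each pair (adjusted p = 0.107 and 0.0956 by edgeR with pair block).

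The alveolar macrophage list as a whole moved less. Of its 23 tested members 6 were higher and 0 lower in 4 of 4 corrected pairs, against 11.4% and 11.1% of all tested genes, and Marco rose. Its most abundant members did not share a direction, as with Lyz2, lysozyme, at 8336 to 20723 RPM in controls and 9823 to 20526 RPM after CS. The summed level was 23288 to 70945 RPM in controls and 30498 to 74812 RPM after CS, with no member at 0 in any library, although CD45-bearing cells had been depleted. The share of macrophages in each library is not given, and their part in the rise of Cd63 and Marco was not tested.

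Mmp12, the macrophage metalloelastase (chromosome 9, 7344381 to 7369499, NCBIM37), went the other way. It measured 24.4, 15.7, 64.2 and 99.0 RPM in controls and 1.28, 8.12, 8.10 and 11.7 RPM after CS, with every CS value below every control. Its log2 difference was -2.69 ± 0.40 (SE, adjusted p = 0.0415 by edgeR with pair block). Of the 15 tested macrophage genes listed as associated with smoke, which include Mmp12, 6 were thus higher and 3 lower in 4 of 4 corrected pairs. The other members lower in every corrected pair were Cxcl16, a chemokine, and Il1rn, the antagonist of interleukin 1 (adjusted p = 0.109 and 0.205 by edgeR with pair block).

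The complement chains of interstitial macrophages were also lower, a result chosen after its values were seen. C1qa measured 143, 25.5, 54.6 and 62.9 RPM in controls and 17.7, 21.4, 14.5 and 26.7 RPM after CS, and overlapped by a single library. Its log2 difference was -1.82 ± 0.38 (SE, adjusted p = 0.0890 by edgeR with pair block). C1qb and C1qc followed it closely, with log2 differences of -1.72 ± 0.40 and -1.82 ± 0.44 (SE). Cx3cr1, a chemokine receptor of monocyte-derived cells, measured 25.1 to 62.1 RPM in controls and 22.7 to 30.8 RPM after CS.

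Among airway genes, Clca3, a protein secreted by goblet cells (chromosome 3, 144667501 to 144695740, NCBIM37), fell furthest. It measured 29.8, 303, 223 and 44.7 RPM in controls and 4.31, 15.1, 5.11 and 6.64 RPM after CS. All CS values were below all controls, while the controls ranged from 29.8 to 303 RPM among themselves. The log2 difference was -3.70 ± 0.39 (SE, adjusted p = 0.00885 by edgeR with pair block). Pigr, the receptor that carries IgA across the epithelium, measured 159, 177, 129 and 71.0 RPM in controls and 77.6, 98.7, 65.7 and 52.0 RPM after CS (log2 difference -0.68 ± 0.11 SE, adjusted p = 0.0415 by edgeR with pair block). Clca3 and Pigr were the 2 of 9 tested goblet and mucous genes that were lower in 4 of 4 corrected pairs, and 0 were higher. The shares of all tested genes were 11.1% and 11.4%. By edgeR with pair block, 2 of the 9 were higher and 2 lower at an unadjusted p under 0.05. The median corrected log2 ratio of the list by pair was 0.33, -0.34, -0.39 and 0.27, so the list had no shared direction.

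The mucins themselves were less regular. Muc5b, the main airway mucin, measured 164, 169, 246 and 34.9 RPM in controls and 65.8, 63.2, 49.4 and 51.4 RPM after CS, but its CDS is very long and it was lower in 2 of 4 pairs once length was corrected. Muc5ac, a goblet cell mucin below the count minimum, was at 2.28 to 7.26 RPM in controls and 0.997 to 2.03 RPM after CS, and was lower in 3 of 4 corrected pairs.

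The other epithelial lists differed. For alveolar type 2 cells 0 of 13 tested genes were higher and 1 lower in 4 of 4 corrected pairs, and Sftpc measured 12453, 15288, 3104 and 7636 RPM in controls and 12914, 20144, 2323 and 9170 RPM after CS. For ciliated cells the counts were 0 higher and 1 lower of 22, and for club cells 3 higher and 1 lower of 10. Scgb3a2, a club cell secretoglobin, was higher in each pair, at 1014 to 2806 RPM in controls and 1532 to 5185 RPM after CS (adjusted p = 0.144 by edgeR with pair block). Of 8 genes on the list of general epithelium, 3 were higher and 0 lower in 4 of 4 corrected pairs. All 4 tested keratins were higher in 4 of 4 corrected pairs, namely Krt7, Krt8, Krt18 and Krt19, the keratins of simple epithelia. Krt19 measured 527, 679, 501 and 659 RPM in controls and 750 to 997 RPM after CS, without overlap (log2 difference 0.53 ± 0.12 SE, adjusted p = 0.107 by edgeR with pair block).

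Lymphocyte and adhesion genes were among those that fell. Of 24 tested genes of T and NK cells, 9 were lower and 1 higher in 4 of 4 corrected pairs, with a median log2 difference of -0.30, and Ccl5 fell. Ccl5, a chemokine of cytotoxic lymphocytes, measured 256, 397, 141 and 430 RPM in controls and 398, 378, 111 and 194 RPM after CS. The male α7G pair was higher in RPM and lower only after correction, Ccl5 having a short CDS of 273 bases, so the call rests on the correction (log2 difference -0.69 ± 0.12 SE, adjusted p = 0.0423 by edgeR with pair block).

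Prf1, Cd4 and Gzmb were named after their values were seen, and Prf1 and Cd4 needed no such correction for their direction. Before correction, 6 of the 24 genes on the list were lower and 1 higher in 4 of 4 pairs. The shares of all tested genes in RPM were 12.1% lower and 13.1% higher. Prf1, perforin, measured 103, 137, 113 and 101 RPM in controls and 71.7, 94.5, 67.7 and 55.3 RPM after CS, with all CS values below all controls (log2 difference -0.63 ± 0.14 SE, adjusted p = 0.0918 by edgeR with pair block). Cd4 measured 58.9, 50.3, 60.7 and 55.9 RPM in controls and 36.5, 42.1, 40.6 and 32.9 RPM after CS, also without overlap (log2 difference -0.60 ± 0.14 SE, adjusted p = 0.109 by edgeR with pair block). Gzmb, granzyme B, was lower in each pair with an adjusted p of 0.0546 by edgeR with pair block. Cd3d, which every T cell carries, was lower in 2 of 4 corrected pairs.

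Itga4, the integrin chain that brings lymphocytes to tissue, measured 257, 169, 287 and 140 RPM in controls and 81.0, 75.1, 173 and 85.4 RPM after CS. Each pair fell, and 1 CS library, the male α7E260A:G, lay within the range of the controls (log2 difference -0.80 ± 0.11 SE, adjusted p = 0.0384 by edgeR with pair block). Slamf7, a receptor of NK and plasma cells, measured 51.4, 47.0, 25.2 and 44.8 RPM in controls and 26.3, 30.2, 12.3 and 15.2 RPM after CS (log2 difference -1.15 ± 0.18 SE, adjusted p = 0.0415 by edgeR with pair block). The summed level of the T and NK list was 2300 to 4101 RPM in controls and 2084 to 3550 RPM after CS, with no member at 0 in any library. Ptprc was lower in 4 of 4 corrected pairs too (log2 difference -0.29 ± 0.11 SE, adjusted p = 0.278 by edgeR with pair block), and the part of residual CD45-bearing cells in these results was not tested.

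Signalling and RNA decay genes completed those that fell. Chsy1, a chondroitin synthase, measured 112, 87.7, 126 and 63.2 RPM in controls and 38.9, 55.5, 64.0 and 37.8 RPM after CS (log2 difference -0.81 ± 0.13 SE). Xrn1, the exonuclease of mRNA decay, measured 39.9, 33.8, 73.0 and 19.7 RPM in controls and 10.8, 13.3, 32.4 and 9.73 RPM after CS (log2 difference -0.86 ± 0.15 SE). The kinase Taok1, the G protein Gna13 and the phosphatase Ptpn11 fell by 0.95, 0.77 and 0.73 on the log2 scale. In all of these the female α7E260A:G control was the lowest control, and the groups overlapped.

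One gene that rose is uncertain. Pcdhgc5 belongs to the γ-protocadherin cluster, whose members share exons, and its annotated CDS of 22395 bases compares with 28694 bases for the longest tested. It measured 61.6, 65.0, 86.3 and 17.5 RPM in controls and 53.4, 72.2, 69.3 and 43.6 RPM after CS, lower in 2 of 4 pairs, and its log2 difference of 1.35 ± 0.15 (SE) arose with the length correction.

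Some single genes known from dendritic cells were also lower. They were picked after their values were seen, no such list was fixed, most were below the count minimum and 0 passed the threshold. Ccl17, a chemokine of dendritic cells that draws T cells (chromosome 8, 97334353 to 97335935, NCBIM37), measured 24.8, 14.7, 30.1 and 59.9 RPM in controls and 6.87, 10.7, 4.11 and 14.2 RPM after CS. Its neighbour Ccl22, which shares its receptor, measured 9.02, 8.33, 12.8 and 15.1 RPM in controls and 3.49, 2.82, 4.61 and 7.41 RPM after CS. In the wider gene set the log2 differences were -2.11 ± 0.33 for Ccl17 and -1.69 ± 0.30 for Ccl22 (SE, adjusted p = 0.0672 and 0.0753 by edgeR with pair block).

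Cxcl9, a chemokine induced by interferon γ, measured 3.85, 5.34, 13.2 and 20.7 RPM in controls and 2.33, 2.14, 3.12 and 2.65 RPM after CS (log2 difference -2.10 ± 0.32 SE, adjusted p = 0.0672 by edgeR with pair block). Flt3, the growth factor receptor of dendritic cells, Itgae, the integrin CD103, and the costimulator Cd86 were likewise below every control in every CS library. Itgae, for instance, was at 35.0 to 62.0 RPM in controls and 18.6 to 24.6 RPM after CS (adjusted p = 0.0890 by edgeR with pair block). Entpd1, the ecto-nucleotidase CD39, measured 139, 107, 124 and 97.3 RPM in controls and 62.3, 81.1, 84.7 and 68.5 RPM after CS (log2 difference -0.60 ± 0.13 SE, adjusted p = 0.0890 by edgeR with pair block).

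As lists, antigen presentation had 0 higher and 3 lower of 11 tested genes in 4 of 4 corrected pairs, and cytokines and chemokines 0 higher and 3 lower of 13, against 11.4% and 11.1% of all tested genes. The interferon-stimulated genes had 0 higher and 9 lower of 15 in RPM, against 13.1% and 12.1% of all tested genes. Their summed level, not corrected for length, was 947 to 1101 RPM in controls and 796 to 932 RPM after CS. After correction 0 were higher and 3 lower of 15. Their corrected median log2 ratio was -0.10, 0.07, -0.46 and -0.34 by pair, with no shared direction. B cell genes had 1 higher and 2 lower of 15 in 4 of 4 corrected pairs, and neutrophil genes 0 and 0 of 9. The median log2 difference of the neutrophil genes was -1.38 in the α7G males and 0.64 in the α7G females, so that list had no shared direction.

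**Figure D4:**
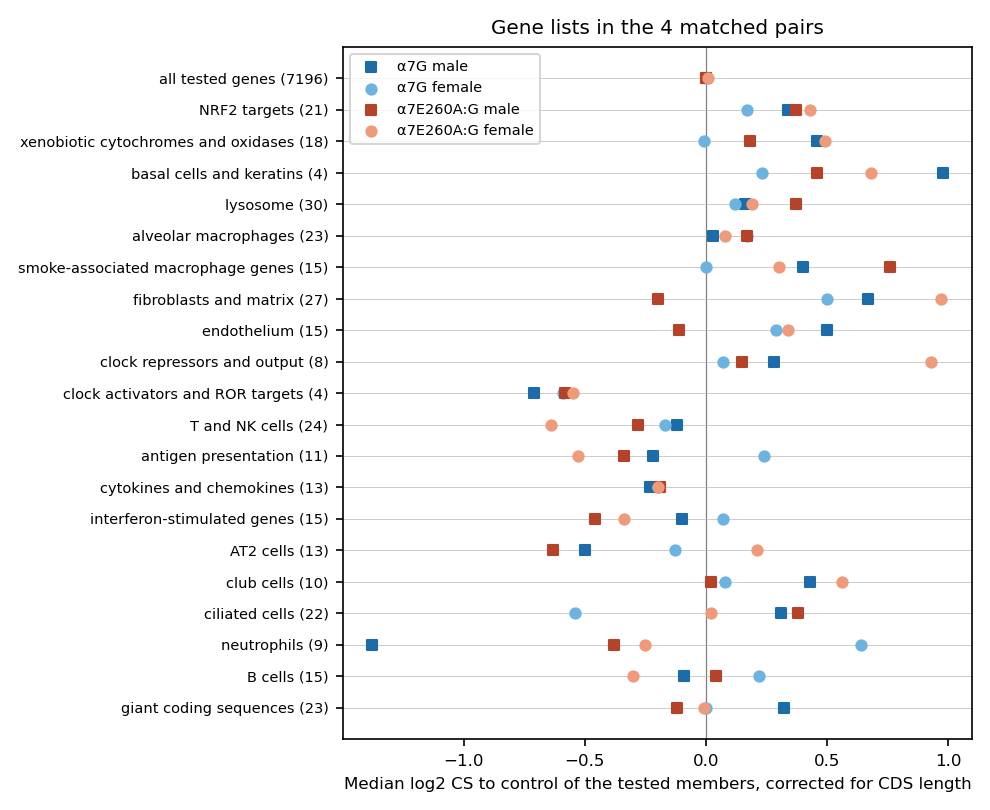
Median log2 ratio of CS to control, corrected for CDS length, of the tested members of 21 gene sets (their number in brackets) in each of the 4 matched pairs. NRF2 targets, keratins, lysosomal, alveolar macrophage and club cell genes, and clock repressors and output, lie above 0 in all 4 pairs. T and NK cell genes, cytokines and chemokines, and the list of clock activators and ROR targets lie below 0 in all 4. Fibroblast genes are below 0 in the α7E260A:G males.

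Genes of the circadian clock formed a last group, none of which passed the threshold. The clock turns on a loop in which ARNTL with CLOCK or NPAS2 drives the period, cryptochrome and REV-ERB genes, whose products in turn hold it back. Of 4 tested genes on the list of 7 activators and ROR targets, 3 were lower in 4 of 4 corrected pairs and 0 higher. The summed level of the 4 tested genes was 139 to 203 RPM in controls and 106 to 137 RPM after CS. Arntl, the core activator also called Bmal1 (chromosome 7, 120350979 to 120457636, NCBIM37), measured 50.3, 36.7, 34.6 and 27.6 RPM in controls and 17.5, 24.6, 20.2 and 17.6 RPM after CS. All CS values were below all controls (log2 difference -0.80 ± 0.17 SE, adjusted p = 0.0813 by edgeR with pair block).

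Nfil3, a repressor that the ROR and REV-ERB receptors control, measured 56.9, 60.1, 74.2 and 56.2 RPM in controls and 32.7, 43.7, 42.4 and 36.3 RPM after CS, again without overlap (log2 difference -0.70 ± 0.13 SE, adjusted p = 0.0546 by edgeR with pair block). Npas2, below the count minimum, measured 10.6, 7.69, 5.24 and 3.38 RPM in controls and 3.38, 3.61, 2.87 and 1.88 RPM after CS. It was lower in each pair while its groups overlapped. Clock was lower in 3 of 4 pairs.

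On the output side, Dbp, a transcription factor whose level follows the clock closely (chromosome 7, 52960458 to 52965525, NCBIM37), measured 7.70, 8.65, 13.0 and 7.68 RPM in controls and 47.4, 28.8, 26.7 and 27.5 RPM after CS. Every CS library was above every control, and in the wider gene set the log2 difference was 1.69 ± 0.24 (SE, adjusted p = 0.0672 by edgeR with pair block). Nr1d1, the gene of REV-ERBα, measured 37.6, 12.7, 86.5 and 11.5 RPM in controls and 66.6, 71.2, 65.0 and 50.3 RPM after CS. Its CS values were close together and its control values were spread widely, with the male α7E260A:G pair lower after CS.

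Nr1d2, its relative, measured 14.3 to 33.5 RPM in controls and 28.0 to 52.7 RPM after CS and was higher in each pair (adjusted p = 0.126 by edgeR with pair block). Bhlhe41, a repressor of the loop, was higher in each pair, at 20.0 to 26.3 RPM in controls and 23.7 to 78.0 RPM after CS (adjusted p = 0.218 by edgeR with pair block). Cry1, a cryptochrome that stands on both clock lists, was lower in each pair at 40.8 to 56.8 RPM in controls and 29.4 to 43.8 RPM after CS. Of the 8 tested repressor and output genes, 3 were higher and 1, Cry1, was lower in 4 of 4 corrected pairs. Levels of these genes change with the hour of the day, the hour at which control lungs were taken is not given, and its part in these values was not tested.

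**Figure D5:**
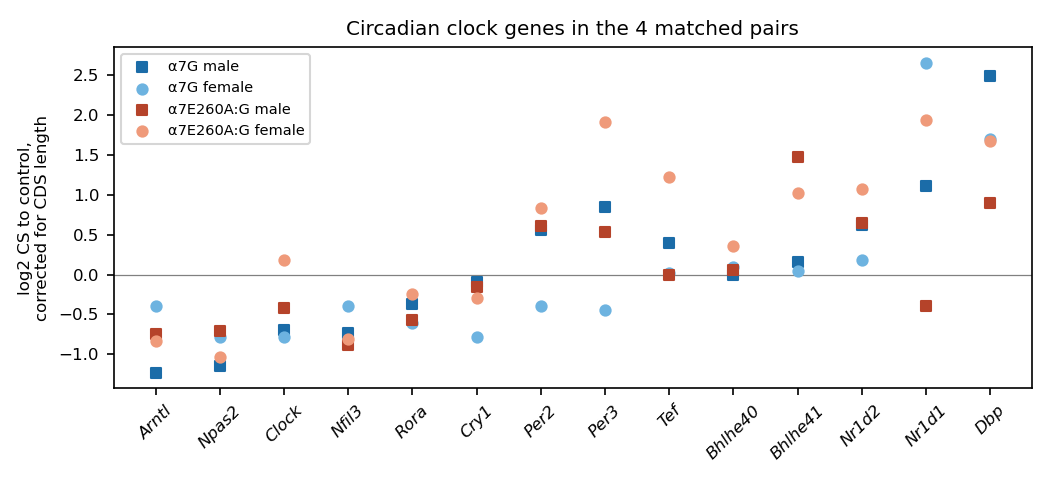
Corrected log2 ratio of CS to control of 14 circadian clock genes in the 4 matched pairs. Arntl, Npas2, Nfil3, Rora and Cry1 lie below 0 in all 4 pairs, Dbp, Nr1d2 and Bhlhe41 lie above 0 in all 4, and Nr1d1 is below 0 in the α7E260A:G males alone.

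The clock motifs were searched in the same promoter windows on both strands. The ROR element, searched as TAGGTCA, was found in Arntl and Nfil3, against 2.38% of tested genes. They were 2 of 6 genes with a window on the list of activators and ROR targets. That list was made to hold ROR targets, so this share is no separate support. The E-box bound by ARNTL, CACGTG, was found in 5 of 11 repressor and output genes with a window against 12.5% of tested genes, and the D-box bound by DBP and NFIL3, TTATGNAA, in 2 of 11 against 2.57%. The stretches are shown for Nfil3, which was lower without overlap, for Bhlhe41, which was higher in each pair, and for Per3, a period gene higher in 3 of 4 corrected pairs. Capitals mark the motif, in reverse complement for Nfil3, in GRCm38.p6.
Nfil3 (chr13:52981040-52981071, minus strand): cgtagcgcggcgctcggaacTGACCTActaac
Bhlhe41 (chr6:145865548-145865593, minus strand): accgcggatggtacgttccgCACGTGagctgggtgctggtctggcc
Per3 (chr4:151044843-151044890, minus strand): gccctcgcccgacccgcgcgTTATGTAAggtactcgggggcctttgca
The Arntl motif lies after its gene start and is not printed.

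The genotypes were compared for each gene by an interaction term. It called 0 of 7196 genes at an adjusted p of 0.05 by edgeR, both without and with the length offset, with 104 and 233 genes at an unadjusted p under 0.05. Tested within 1 genotype with the offset, 0 genes passed in α7G and 0 in α7E260A:G. A p that misses the threshold in 2 against 2 libraries does not show that the genotypes responded alike. Tested within 1 sex with the offset, 281 genes passed in males and 103 in females. Of the 35 genes called with the pair block, 34 were among the former and 27 among the latter. The same libraries had picked the 35 genes, so this overlap is not independent support.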

How the data were processed

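RNA-Seq was from 8 libraries of CD45-depleted distal lung cells. The authors aligned reads with STAR to NCBIM37/mm9 and deposited raw counts on coding sequences from htseq-count with GENCODE release M1. All 22756 gene identifiers matched that annotation, which gave CDS lengths. As in the study, genes with a mean under 200 counts were left out, as were immunoglobulin, histocompatibility, Gm and ribosomal genes (182 removed by name). RPM are counts scaled to a library total of 1000000, with 0.5 added before log2. Counts were tested with edgeR 4.0.16 (glmQLFit, TMM, R 4.3.3, limma 3.58.1) on genotype and exposure with Benjamini-Hochberg adjustment. The length offset was a lowess curve (span 0.667) of each library on log2 CDS length, with 0.5 counts added. The code was tested on simulated data. Alternatives used DESeq2 1.42.0, other filters and scaling, sex or pair blocks, GC content, and subsets of libraries. Other values used Python 3.11.15, pandas 2.3.3, scipy 1.17.1 and matplotlib 3.10.9.

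Pairs share genotype and sex by the labels. The deviations of the 2 libraries of a pair from their exposure means correlated across genes at 0.15, 0.48, 0.84 and 0.61 in RPM (male and female α7G, male and female α7E260A:G) and at 0.46 to 0.69 after correction. These deviations include the difference between genotypes. Within a genotype, the male to female difference in CS and that in controls correlated at 0.13 in α7G and 0.84 in α7E260A:G in RPM. After correction the values were 0.31 and 0.67. The pairs were used as a block, though pairing beyond genotype was weak in α7G.

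The genes named were up to 10 per direction by effect or lowest p, those called, members of the clock, AhR and NRF2 lists, and called or most abundant members of other lists. The comparison, the gene lists and this rule were chosen with earlier results of these data known. Floors cover counting error only. Some members of the lists are not reported here by name.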

Additional observations from a re-analysis of the deposited data

Results flagged for a closer look

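In 10 of 220 groups of 4 libraries of the genes named here, 1 library lay far from the other 3 in RPM (gap over range above 0.829), and chance gives about 1 in 20. In controls these were Serpinf1 in the female α7E260A:G library at 41.7, Enpp2 in the same library at 46.1 and Cbr3 in the female α7G library at 29.7. After CS they were Itga4 at 173, Ptpn11 at 42, Abcc1 at 79.5 and Gaa at 202 in the male α7E260A:G library, Dbp at 47.4 in the male α7G library, Enpp2 at 88 in the female α7G library and Flt3 at 10.6 in the female α7E260A:G library. The 20 tested genes of heat shock and unfolded proteins had median corrected log2 ratios of 0.11 and 0.03 in male and female α7G and -0.23 and -0.14 in male and female α7E260A:G, and that difference between genotypes was not tested.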

How the results depend on the processing

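Without length correction, where edgeR called 0 genes, DESeq2 called 53, α7G alone 1159, males alone 1045 and females alone 3, and leaving out 1 library gave 0 to 1360, the 1360 being without the female α7E260A:G control. With the correction, where edgeR again called 0, DESeq2 called 102, no filter on low counts 63, sex as a replicate block 3, the 4 pairs as a replicate block 35, males alone 281, females alone 103 and a straight line on length 2, and leaving out 1 library gave 0 to 3. Settings added after seeing the data were a GC term (2), the pair block with a GC term (7, all among the 35), the pair block with filterByExpr (5, of which 4 were among the 35), the pair block in DESeq2 (222, with all 35) and the pair block without each pair in turn (0, 2, 47 and 64). The cause was not tested. The pair block changed no other call.

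Of genes higher or lower in every pair, filterByExpr gave 1572 and 1599 (368 and 685 at 1.5-fold) among 13852, and the length offset gave 86 lower at 1.5-fold. Leaving out 1 pair gave 1135 to 1622 higher and 938 to 2409 lower, and at 1.5-fold 78 to 373 higher and 169 to 895 lower, the highest of each without the female α7E260A:G pair. The length slope difference was -0.129 to -0.344 without 1 library, and kept its sign with transcript length (-0.230) and filterByExpr (-0.168). For 110 named genes, 2976 values under alternatives were compared with the edgeR fit with length offset and no pair block. That fit called 0 genes, so a value could gain a call but not lose one. Of these values 2607 kept their direction and stayed uncalled, which does not measure how well the paired calls held, and 367 crossed to the called side. The other 2 changed direction, both in the fit with no length correction, added after seeing the data (Abcc1 -0.28 against 0.17 with it, Vwf -0.19 against 0.51).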
